A study of Mus musculus with 6 samples.

Results

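The genes described here belong to the unfolded protein response and the integrated stress response of mouse cells. They were chosen by symbol from a list of stress sensors, transcription factors, targets of the transcription factor ATF4 and genes of protein folding and degradation in the endoplasmic reticulum (ER), without the Hsp and Dnaj families. All 42 listed genes had a row among the 20624 genes measured, and 0 of them had more than 1 identifier. The RNA came from mDCT15 cells, a line described as mouse distal convoluted tubule, with 3 *Pkd1*-/- and 3 wild type samples sequenced. Both groups were cultured in DMEM/F12 medium with fetal bovine serum, with no treatment named for the sequenced samples. Whether serum was still present when the RNA was collected is not stated in the paper. The *Pkd1*-/- cells had been made by CRISPR-Cas9 editing, although their genotype is labelled as a PKD1 knockdown, and the number of edited clones is not given in the sources used here. *Pkd1* encodes polycystin-1 and is the gene most often mutated in autosomal dominant polycystic kidney disease.

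The values analysed are 1 mean per gene, made by the authors over all 6 samples with both genotypes together. Read counts had been divided by the size factor of each library before averaging. Sample by sample values were not used here, so there is no spread, no number of replicates behind a difference and no test, and the depth of each library is unknown. The levels below describe the line as a whole, and no difference between *Pkd1*-/- and wild type cells is given. *Pkd1* itself was not checked by genotype, because the authors' comparison of the genotypes was not used here. Fewer cells that express a gene and less RNA per cell cannot be told apart in such bulk samples. Levels of genes were compared as mean normalized count per kb of exon, taken over the union of a gene's exons unless the longest transcript is named, and genes next to each other in an order cannot be separated without a spread. The exons come from a later annotation than the one the reads were counted on, so a length can include bases that were not counted, which would make a level per kb too low.

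Proteins that enter the ER are folded there with the help of chaperones, and unfolded protein is sensed by IRE1 (*Ern1*), PERK (*Eif2ak3*) and ATF6. IRE1 splices the mRNA of *Xbp1*, ATF6 is cut in the Golgi to release a transcription factor, and PERK phosphorylates the translation factor eIF2α. Further kinases phosphorylate the same site of eIF2α upon viral RNA, heme shortage or amino acid shortage, which lowers translation in general and raises that of *Atf4* (the integrated stress response). ATF4 turns on genes of amino acid supply, whereas XBP1 and ATF6 turn on genes of folding and of ER-associated degradation, which returns misfolded protein to the cytosol.

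As a group, the stress response genes were abundant in mDCT15 cells. Their median level was 278.0 per kb, against 28.6 over all genes with an exon length and 72.7 over the 13859 protein-coding ones. In the order of 20116 gene symbols by level per kb, the median member stood at percentile 88.5. Of the 42 members, 41 lay above the median gene, 34 were in the top 25%, 17 in the top 10% and 4 in the top 1%. Those 4 were *Calr*, *Atf4*, *Canx* and *Pdia3*. With the longest transcript as the length the counts were 40, 34, 16 and 4. *Vldlr* then lay just below the median gene, and *Phgdh* was in the top 1% in place of *Pdia3*. A mean normalized count of at least 100 was reached by 41 members, while 50.3% of all genes reached it. The member under that mean was *Derl3*, with 8.27.

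**Figure D1:**
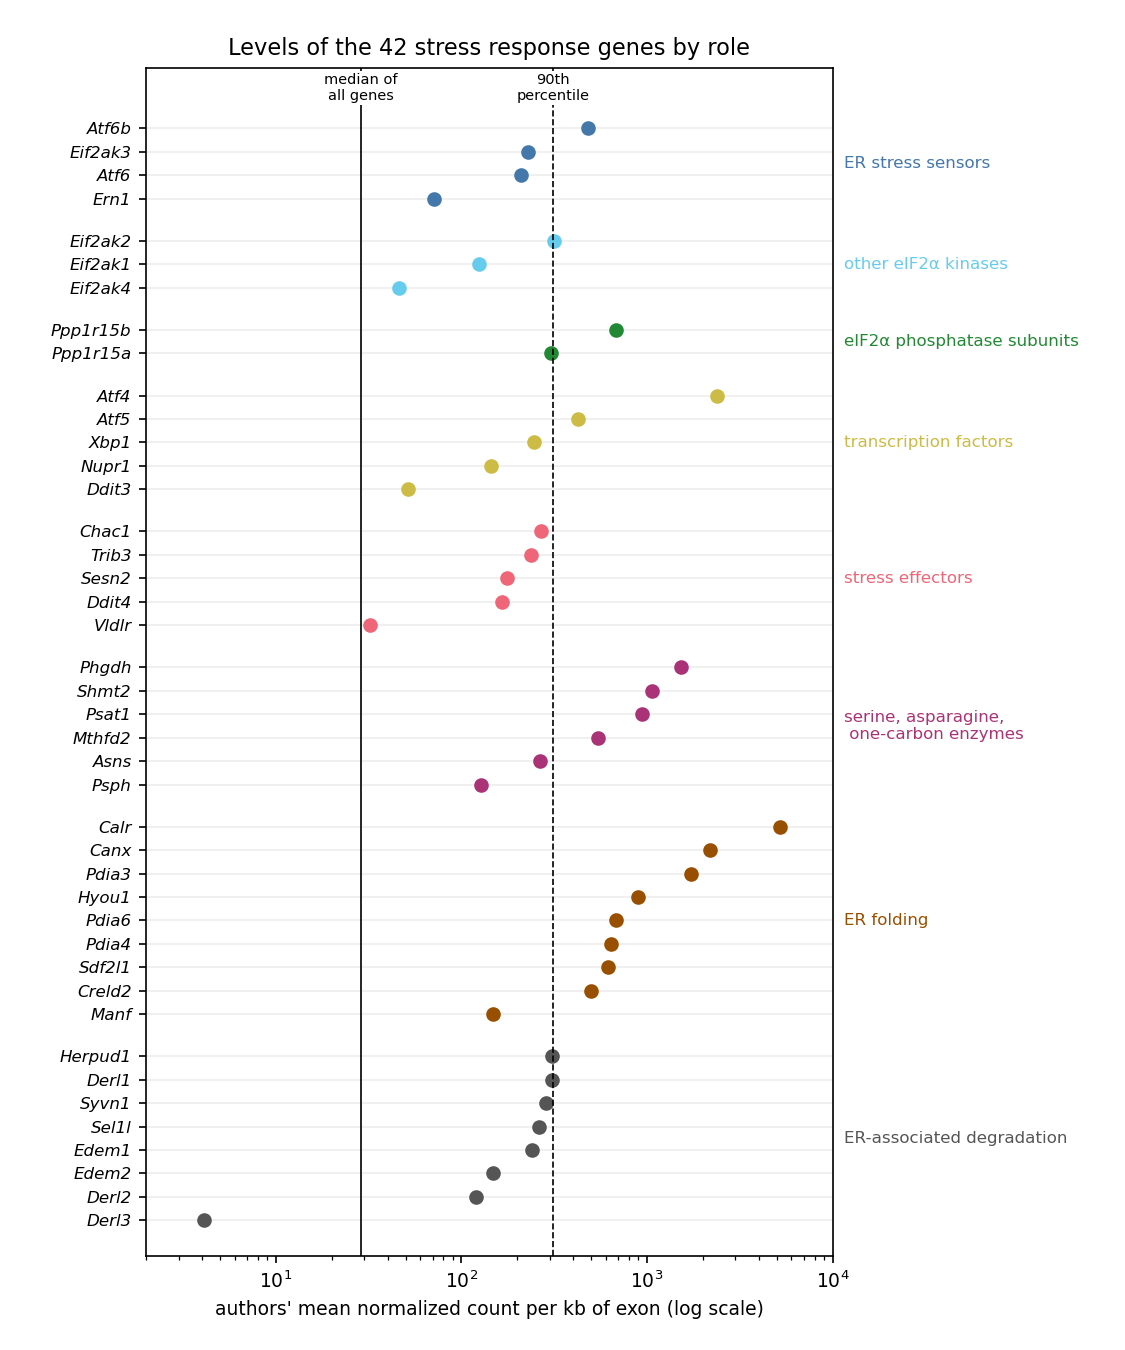
Level of each of the 42 genes as the authors' mean normalized count per kb of exon (log scale), grouped and coloured by role, with 1 point per gene for both genotypes pooled. The solid line is the median of all genes (28.6 per kb) and the dashed line their 90th percentile. *Calr* is the highest point (5244) and *Derl3* (4.08) the only one to the left of the solid line.

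The 42 genes together held 0.729% of the summed mean normalized counts. That share depends on a few noncoding transcripts, because *Gm26917*, *Gm42418* and *Rn7sk* alone took 8.99% of the sum. Without these 3 genes the share was 0.801%. Within the members, folding genes held 53.0% of the summed means, the amino acid and one-carbon enzymes 16.6% and the degradation genes 8.84%. These shares are of counts, not of molecules, so long transcripts weigh more in them.

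**Figure D2:**
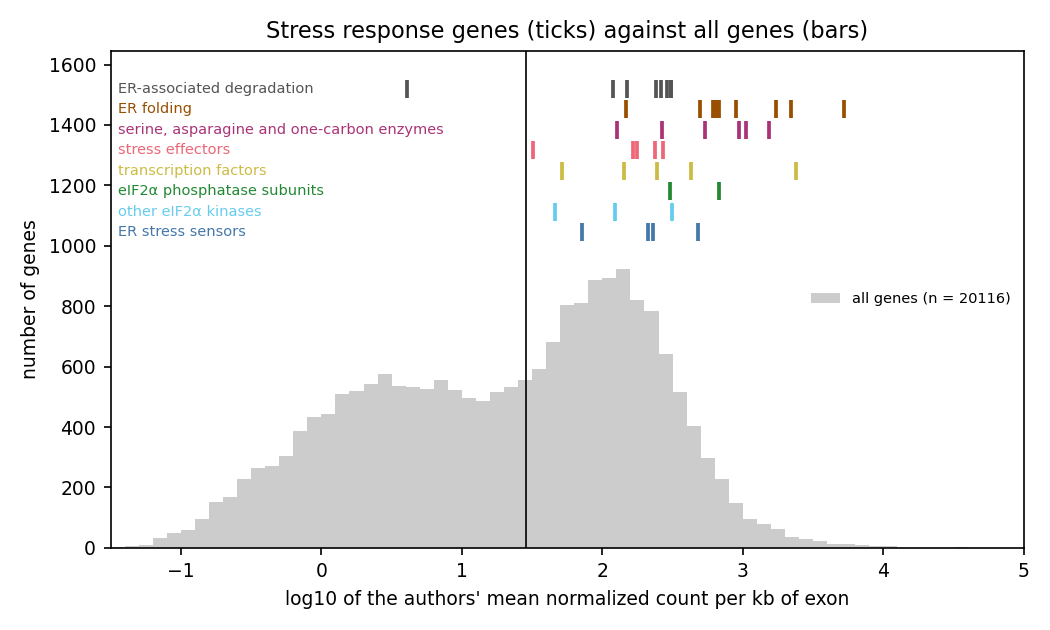
Number of genes (bars, 20116 symbols) by the log10 of the mean normalized count per kb of exon, with a tick for each stress response gene in a line for its role. The vertical line is the median of all genes, and 41 of 42 ticks lie to its right.

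The ER stress sensors had a median of 218.9 per kb. *Atf6b*, which encodes a relative of ATF6 that is also cut in the Golgi, was the highest of the 4 at 479.5 per kb (ENSMUSG00000015461, GRCm39 chr17:34866091-34874056, plus strand). The IRE1 gene *Ern1* was the least abundant at 71.4 per kb (ENSMUSG00000020715, chr11:106283818-106378686, minus strand). *Eif2ak3* and *Atf6* lay close together between them, at 227.8 and 209.9 per kb. The RNA of the PERK gene was thus 3.19 times that of the IRE1 gene per kb, and *Atf6b* was 2.28 times *Atf6*. With the longest transcript as the length, these ratios were 3.05 and 2.01. Without scaling by length *Atf6* (mean 2057) stood above both *Atf6b* (1603) and *Eif2ak3* (1446), so both orders turned. The ratio of *Atf6b* to *Atf6* was then 0.779, and that of the PERK gene to the IRE1 gene 2.01.

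Among the other eIF2α kinases, *Eif2ak2* was highest at 314.5 per kb (ENSMUSG00000024079, chr17:79159972-79190012, minus strand). It encodes PKR, which binds double-stranded RNA. *Eif2ak1*, the heme-regulated kinase, followed at 123.8 per kb. *Eif2ak4*, which encodes GCN2, the kinase that senses uncharged tRNA, was lowest at 46.3 per kb (ENSMUSG00000005102, chr2:118218950-118305868, plus strand). The distance between PKR and GCN2 depended on the length used. It was 6.79-fold over the union of exons, 3.44-fold over the longest transcript and 2.47-fold without a length. The exons of *Eif2ak4* add up to 14.9 kb while its longest transcript has 6.07 kb. PERK RNA was below PKR RNA on both length scales, with ratios of 0.724 and 0.80.

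Both genes for the subunits that direct protein phosphatase 1 to eIF2α, and so reverse the phosphorylation, were well above the median gene. *Ppp1r15b*, which encodes the constitutive subunit CReP, had 681.6 per kb (ENSMUSG00000046062, chr1:133058881-133067539, plus strand). *Ppp1r15a*, which encodes the stress-inducible subunit GADD34, had 305.6 per kb (ENSMUSG00000040435, chr7:45172340-45175692, minus strand). The constitutive subunit was 2.23 times the inducible one per kb of exon, 2.14 times with the longest transcript and 4.26 times without a length. Of the 42-base stretches in the exons of *Ppp1r15a*, 11.6% occur more than once in the genome, and 42 bases is the read length. When repeated stretches were left out of the lengths, the ratio was 1.97.

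The transcription factors ranged more widely. *Atf4* had 2374 per kb, the second highest level of the 42 genes over the union of exons and at percentile 99.5 of all genes (ENSMUSG00000042406, chr15:80139372-80141745, plus strand). *Atf5*, a related factor that is also translated under eIF2α phosphorylation, had 424.4 per kb. *Xbp1* followed at 246.7 per kb, and the spliced and unspliced forms of its mRNA are not distinguished by a count per gene. *Nupr1*, a small stress-induced chromatin protein, had 143.5 per kb. The lowest was *Ddit3*, which encodes CHOP, a factor that promotes cell death under lasting ER stress, at 51.4 per kb (ENSMUSG00000025408, chr10:127124268-127132163, plus strand). *Atf4* RNA was thus 46.2 times *Ddit3* RNA per kb and 48.7 times with the longest transcript, but 19.7 times by mean normalized count without a length. Against *Xbp1* the ratio was 9.62 per kb of exon, 6.08 with the longest transcript and 3.30 without a length.

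The level of *Ddit3* is uncertain. Its exons add up to 5.58 kb in the later annotation, and how many of these bases were counted over was not tested. In the annotation used, 82.4% of its exon bases lie opposite exons of other genes, and 64.1% lie opposite *Mars1*, a tRNA synthetase gene with a mean of 3313 against 287 for *Ddit3*. The counting is stated to have used default parameters, which take the first read of a pair to lie on the gene's own strand, whereas the library kit places it on the opposite strand. In 38 genes that lie at least 95% inside opposite-strand exons of a gene with a mean of 1000 or more, the median level was 1.23% of the host's level per kb and the highest 41.3%. How reads on the bases shared by *Ddit3* and *Mars1* were counted was not tested. Overlaps of this kind covered over 10% of the exons in 9 of the 42 genes, including *Eif2ak1* (28.6%), *Pdia3* (26.5%), *Xbp1* (22.0%) and *Nupr1* (21.8%).

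The stress effectors are ATF4 or CHOP targets that act on signalling and metabolism, and their median was 176.7 per kb. *Chac1*, which breaks down glutathione, had 268.9 per kb of exon, the highest of the 5 on that scale (ENSMUSG00000027313, chr2:119180757-119184866, plus strand). *Trib3*, a pseudokinase that binds AKT, had 236.8 per kb. With the longest transcript *Trib3* (307.1 per kb) stood above *Chac1* (289.2 per kb). *Sesn2* and *Ddit4*, both inhibitors of mTORC1, had 176.7 and 165.4 per kb. *Vldlr*, a lipoprotein receptor, was the lowest at 32.3 per kb (ENSMUSG00000024924, chr19:27193862-27231631, plus strand), at percentile 51.5 of all genes, or 49.99 with the longest transcript, where it was just under the median gene. Apart from *Vldlr*, the effectors differed from each other by less than the sensors did.

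The enzymes of serine, asparagine and one-carbon metabolism, many of them ATF4 targets, had a median of 739.5 per kb, the highest of the 8 roles on the main length scale. *Phgdh*, which catalyses the first step of serine synthesis, had 1532 per kb (ENSMUSG00000053398, chr3:98220484-98255047, minus strand). *Psat1*, the enzyme of the next step, had 937.7 per kb. *Psph*, the last enzyme of the pathway, had 127.0 per kb (ENSMUSG00000029446, chr5:129841925-129864513, minus strand). The RNA of the first enzyme was 12.1 times that of the last per kb of exon and 11.0 times with the longest transcript. Without a length it was 4.64 times. In mitochondria, *Shmt2* transfers the carbon of serine to folate and *Mthfd2* oxidises the product, and their levels were 1060 and 541.3 per kb. *Shmt2* was above *Psat1* per kb of exon and below it with the longest transcript (1474 and 1940 per kb). *Asns*, asparagine synthetase, had 264.5 per kb.

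*Phgdh* is the member with the largest share of repeated sequence. More than 1 copy in the genome was found for 51.5% of its 42-base stretches, while the median member had 0.718%. Reads with several places in the genome are left out by the counter's defaults. Scaled by the unrepeated stretches alone, *Phgdh* had 3160 per kb, and its ratio to *Psph* was 24.7. *Derl1* (11.4%) and *Ppp1r15a* were the only other members over 10%.

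Folding genes were the most abundant by count. *Calr*, which encodes the lectin chaperone calreticulin, had a mean of 19996 and 5244 per kb, at percentile 99.8 (ENSMUSG00000003814, chr8:85567946-85573667, minus strand). Its membrane-bound relative *Canx*, calnexin, had 2193 per kb. The soluble chaperone was 2.39 times the membrane-bound one per kb of exon and 2.36 times with the longest transcript, but 1.20 times without a length. Among the protein disulfide isomerases, *Pdia3*, which works with calreticulin and calnexin on glycoproteins, had 1724 per kb. *Pdia6* and *Pdia4* had 680.6 and 642.0 per kb of exon, and 1222 and 812.3 with the longest transcript. *Hyou1*, a large ER chaperone and nucleotide exchange factor, had 895.5 per kb.

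The small ER proteins *Sdf2l1* and *Creld2* had 615.2 and 497.3 per kb. The exons of *Sdf2l1* add up to 1.11 kb, and its mean of 685 was the lowest of the folding genes without a length. *Manf*, a secreted protein that binds the main Hsp70 of the ER, had a mean of 1803 and was the lowest folding gene per kb at 148.2 (ENSMUSG00000032575, chr9:106715511-106769727, minus strand). Its level is uncertain, because 32.6% of its exon bases are shared on the same strand with *Rbm15b* (mean 1568), and reads on shared bases are counted for neither gene by default. Its exon length of 12.2 kb may also include bases that were not counted. With its longest transcript *Manf* had 298.7 per kb.

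Degradation genes lay in a narrow band with 1 exception. *Herpud1*, which encodes a membrane component of the degradation complex, had 309.2 per kb of exon, the highest of the 8 on that scale (ENSMUSG00000031770, chr8:95113022-95123141, plus strand). With the longest transcript *Derl1* (387.9 per kb) stood above it (379.6 per kb). *Syvn1*, the ubiquitin ligase HRD1, had 287.1 per kb of exon and its partner *Sel1l* 262.8, in the opposite order to the longest transcript (342.3 and 375.0). *Edem1* and *Edem2*, which mark misfolded glycoproteins by trimming mannose, had 240.4 and 148.6 per kb. The ratio of *Edem1* to *Edem2* was 1.62 per kb of exon, 1.27 with the longest transcript and 3.12 without a length.

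The derlins, membrane proteins that help misfolded protein leave the ER, differed most. *Derl1* had 307.4 per kb and *Derl2* 119.2. The exons of *Derl2* add up to 9.32 kb, which may include bases that were not counted, and with its longest transcript of 4.37 kb it had 254.1 per kb. *Derl3* had 4.08 per kb, at percentile 28.1 of all genes (ENSMUSG00000009092, chr10:75729215-75731775, plus strand). *Derl1* RNA was 75.3 times and *Derl2* RNA 29.2 times that of *Derl3* per kb, and 62.9 and 41.2 times with the longest transcript. Without a length these ratios were 203.8 and 134.3. The order of *Derl1* and *Derl2* was the same on both length scales, with ratios of 2.58 and 1.53. None of the exon bases of *Derl3* overlap an exon of another gene in the annotation used, and 0% of its stretches are repeated.

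**Figure D3:**
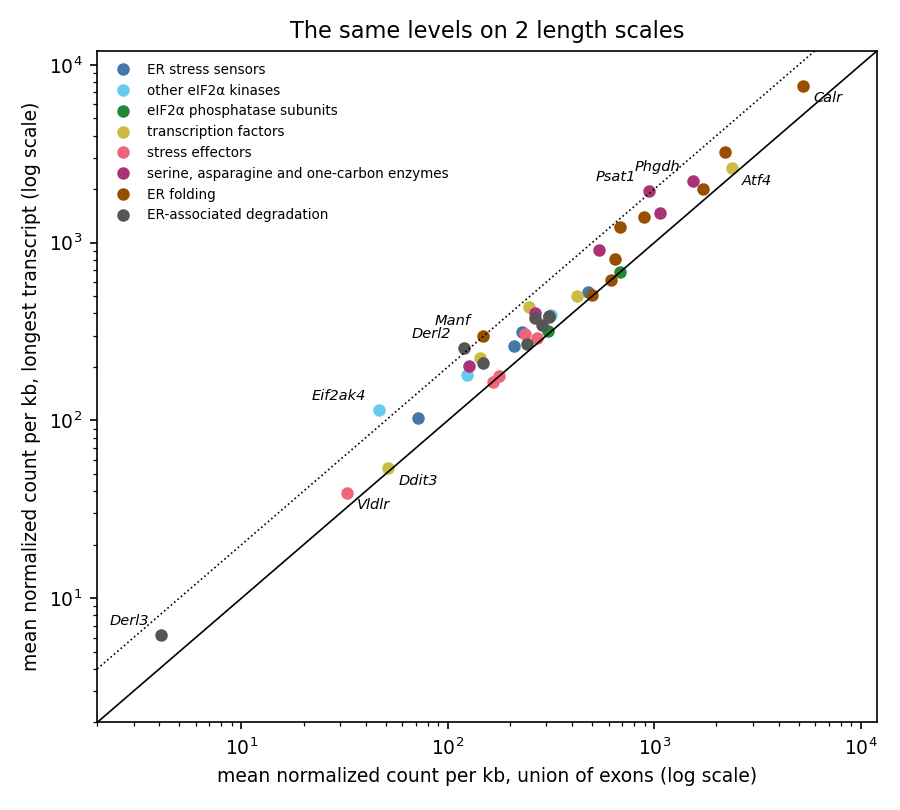
Level of each gene scaled by the union of its exons (horizontal, log scale) and by its longest transcript (vertical, log scale), coloured by role. The solid line marks equal values and the dotted line a vertical value 2 times the horizontal one. *Eif2ak4* moves most (46.3 to 113.8), and *Calr* stays highest and *Derl3* lowest on both axes.

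The length scale changed levels by a factor of 1 to 2.46, with a median of 1.34, and 3 members had the same level on both. The largest shift in order was 8 places, for *Xbp1*. Of 109 pairs of members with the same role, 5 changed their order between the length scales. These were *Chac1* and *Trib3*, *Shmt2* and *Psat1*, *Herpud1* and *Derl1*, *Syvn1* and *Sel1l*, and *Edem2* and *Derl2*. Against the mean without a length, 23 of the 109 pairs changed their order. On the longest transcript the folding genes (median 1222 per kb) stood above the enzymes (1191), where the order of these roles is the reverse of that on the union of exons (680.6 and 739.5).

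Promoters were searched for binding motifs of the pathway's transcription factors in RefSeq windows from 250 bases before to 50 bases after the transcription start. The table (RefSeq, GRCm38.p6) had a window for 37 of the 42 genes, all except *Atf6*, *Manf*, *Hyou1*, *Ppp1r15b* and *Derl1*. All 42 windows of these genes, some having several starts, were found once on their chromosome in GRCm39, whose coordinates are given. Both strands were searched. The ER stress element, a site known for NF-Y together with ATF6 or XBP1, was searched as CCAAT, 9 free bases and CCACG, and the ER stress element II as ATTGG, 1 free base and CCACG. The unfolded protein response element was searched as TGACGTGG and the CEBP-ATF response element, known for ATF4 with a CEBP partner, as TGATGNAA. The unfolded protein response element holds CGTGG, the ER stress elements' CCACG read on the opposite strand. Many members were listed as ATF4 targets or as folding and degradation genes, which these factors are known to turn on. Shares of members with a motif are therefore no independent support for the motifs or for regulation in these cells. Whether a motif was first described in a member's promoter was not checked.

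The ER stress element was found in 6 of 37 members (16.2%), against 0.137% of 27025 genes and 0.160% of the 11872 measured genes with a window. These were the folding genes *Calr*, *Canx*, *Pdia6* and *Creld2* and the degradation genes *Syvn1* and *Derl3*. *Herpud1* alone had the ER stress element II, which 0.0444% of all genes and 0.0842% of the measured ones hold. Either element was present in 7 of 14 folding and degradation genes with a window and in 0 of the other 23 members. Of all genes, 0.181% hold either element, so 0 among 23 members does not set them apart from other genes. The genes with the element span the whole range of levels, from *Calr* (5244 per kb) to *Derl3* (4.08 per kb). Of the 16 other folding and degradation genes of the pathway list that had a window, 1 (*Ero1b*) held the ER stress element and 0 the ER stress element II. Each match in a member is printed, to show the letters behind these counts, with up to 30 bases on either side, read along the gene's strand and not beyond the start. Capitals mark the fixed letters of the motif, and where the ER stress element lies on the opposite strand they read CGTGG and ATTGG.
Calr, chr8:85573674-85573752, minus strand: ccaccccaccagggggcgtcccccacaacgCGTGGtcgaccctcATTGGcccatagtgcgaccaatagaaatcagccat
Canx, chr11:50216597-50216675, minus strand: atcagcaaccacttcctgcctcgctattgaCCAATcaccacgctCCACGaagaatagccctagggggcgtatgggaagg
Pdia6, chr12:17316462-17316540, plus strand: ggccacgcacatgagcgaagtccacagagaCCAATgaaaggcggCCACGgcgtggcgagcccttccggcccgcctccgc
Creld2, chr15:88703693-88703771, plus strand: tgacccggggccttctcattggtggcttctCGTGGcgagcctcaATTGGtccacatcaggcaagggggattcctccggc
Syvn1, chr19:6096532-6096605, plus strand: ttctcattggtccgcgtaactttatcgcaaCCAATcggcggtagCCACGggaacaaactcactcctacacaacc
Derl3, chr10:75729046-75729124, plus strand: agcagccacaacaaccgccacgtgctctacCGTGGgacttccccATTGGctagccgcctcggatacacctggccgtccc
Herpud1, chr8:95112975-95113045, plus strand: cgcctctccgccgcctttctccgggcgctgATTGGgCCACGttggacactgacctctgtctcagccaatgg

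The CEBP-ATF response element was present in 6 members (16.2%), against 4.51% of all genes and 2.78% of the measured ones. They were the effectors *Chac1*, *Trib3* and *Vldlr*, the factor *Nupr1*, the enzyme *Asns* and the degradation gene *Herpud1*. The match in *Trib3* lies after the start, at bases 15 to 22 (chr2:152185959-152185966), and 5 members remained when only bases before the start were searched. In 4 of these 5, *Chac1*, *Herpud1*, *Nupr1* and *Vldlr*, the motif reads TTGCATCA along the gene, with the same letter at the free position. *Herpud1* holds both kinds of element, the CEBP-ATF response element 112 bases and the ER stress element II 52 bases before the start. The sequences are given in the same manner, with the fixed letters in capitals.
Chac1, chr2:119181500-119181567, plus strand: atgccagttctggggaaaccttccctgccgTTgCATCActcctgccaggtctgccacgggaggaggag
Nupr1, chr7:126224715-126224782, minus strand: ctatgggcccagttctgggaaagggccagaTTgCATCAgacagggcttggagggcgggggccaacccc
Herpud1, chr8:95112915-95112982, plus strand: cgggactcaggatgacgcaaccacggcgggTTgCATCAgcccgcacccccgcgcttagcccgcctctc
Vldlr, chr19:27194190-27194257, plus strand: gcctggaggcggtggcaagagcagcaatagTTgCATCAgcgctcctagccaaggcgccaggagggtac
Asns, chr6:7693210-7693262, minus strand: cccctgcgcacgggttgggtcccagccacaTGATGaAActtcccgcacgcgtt

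**Figure D4:**
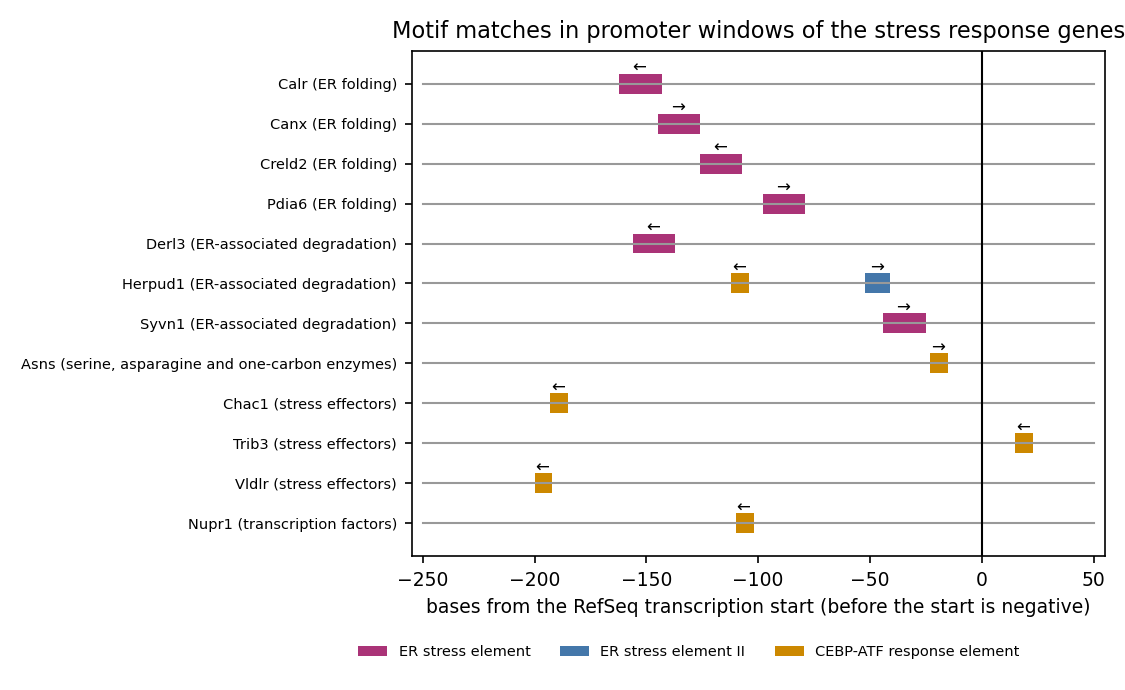
Position of each motif match (coloured boxes) in the promoter windows of the 12 members that hold any, in bases from the RefSeq transcription start, with an arrow for the strand of the match relative to the gene. The ER stress elements of both kinds lie between 162 and 26 bases before the start, and the match in *Trib3* is the only one after it.

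The unfolded protein response element was found in 0 of 37 members, in 0.714% of all genes and in 1.02% of the measured ones. At least 1 of the 4 motifs was present in 12 members (32.4%), against 5.35% of all genes. The core of both ER stress elements, CCACG, was far more common, in 27 members (73.0%), 35.5% of all genes and 50.3% of the measured ones. With 1 mismatch allowed, a setting added after seeing the data, the ER stress element was present in 12 members (32.4%). It was then in 1.72% of all genes and 2.25% of the measured ones. A match is a description of the letters in a window, and a window without one says nothing about the factor.

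The wider pathway was also measured, and its groups differed in level. Of 58 other genes from a list of partners and targets, 58 had a value. A mean of at least 100 was reached by 55 of them and by 50.3% of all genes. Their median was 201.1 per kb, against 28.6 over all genes with an exon length and 72.7 over the protein-coding ones. The 8 subunits of eIF2 and of its exchange factor eIF2B had a median of 207.0 per kb, from *Eif2b3* (49.7) to *Eif2s2* (356.6). The 8 signalling partners of the sensors had a median of 83.5 per kb. Highest was *Rtcb* (844.4), the ligase that joins the *Xbp1* exons after IRE1 has cut them, and lowest *Oma1* (18.7), a mitochondrial protease that relays stress to the integrated response. The 8 genes listed as bZIP partners and related factors, not all of them bZIP factors, had a median of 185.7 per kb. They ranged from *Creb3l1* (7.76) to *Atf3* (402.7).

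Other ATF4 targets were less abundant as a group than the members, with a median of 38.2 per kb over 12 genes. Their median percentile among all genes was 53.5. Their range was wide, from *Slc7a3* (3.87 per kb), a transporter of cationic amino acids, to *Slc7a5* (1133 per kb), the light chain of the large neutral amino acid transporter LAT1. The 10 other folding and oxidation genes had a median of 243.2 per kb. Among them *P4hb*, the archetypal protein disulfide isomerase, had 4181 per kb and the ER oxidase *Ero1b* 47.4. The 12 other degradation genes had a median of 292.6 per kb, from *Erlec1* (66.4), a lectin, to *Nploc4* (740.0), a cofactor of the ATPase p97. With the longest transcript, *Slc3a2* (1217 per kb) stood above *Slc7a5* (1198 per kb) among the other ATF4 targets. In 42 of these genes with a promoter window, the ER stress element was found in 1 (*Ero1b*). It was found in 0.137% of all genes and 0.160% of the measured ones. The unfolded protein response element was present in 3, *Txndc5*, *Vcp* and *Ube2j1*, against 0.714% of all genes and 1.02% of the measured ones. The CEBP-ATF response element was present in 7, against 4.51% of all genes and 2.78% of the measured ones. They were *Eif2s3x*, *Atf3*, *Slc7a11*, *Pycr1*, *Fgf21*, *Txndc5* and *Faf2*.

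The labelled cell type was compared with marker genes, again over both genotypes. Sums over a marker list are of mean normalized counts, and levels of single genes are per kb of exon. Of 8 distal convoluted tubule markers, 4 had a value, and these summed to 497.0. The highest was the kinase gene *Wnk4* at 94.5 per kb, while *Egf* had 3.95, *Trpm6* 3.72 and *Klhl3* 0.772 per kb. The defining sodium chloride cotransporter gene *Slc12a3* had no row among the genes measured, and neither had *Pvalb*, *Calb1* and *Slc8a1*. Of the markers with a value, all but *Wnk4* were thus below the median gene, and the name of the line is used as its label gives it.

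Epithelial markers had values for 4 of 6 genes, summing to 10424, with *Cdh16* at 1125 per kb, *Tjp1* at 710.1, *Epcam* at 44.6 and *Krt8* at 0.501. *Cdh1* and *Krt18* had no row among the genes measured. All 5 proximal tubule markers had values, summing to 20354. The water channel gene *Aqp1* (3815 per kb) and the endocytic receptor gene *Lrp2* (528.4 per kb) were high, *Cubn* had 11.3 per kb, and the transporter genes *Slc5a2* (0.958 per kb) and *Slc34a1* (0.322 per kb) were low. Thick ascending limb markers had a value for 0 of 3 genes. Collecting duct markers had one for 2 of 5, summing to 2.56, with *Aqp3* at 1.06 and *Scnn1g* at 0.193 per kb. The 5 fibroblast and mesenchyme genes summed to 17664, with *Vim* at 3672 per kb, *Col1a1* at 30.5 and the other 3 at most at 0.553. Endothelial markers had a value for 1 of 3 genes, *Pecam1*, which had a mean of 4.68 and 0.468 per kb. Leukocyte markers had one for 2 of 3, summing to 47.3, with *Cd68* at 30.6 and *Ptprc* at 0.286 per kb. The part of these cell type features in the levels of the stress response genes was not tested.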

How the data were processed

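RNA sequencing of 3 Pkd1-/- and 3 wild type mDCT15 samples was analysed from a table with 1 row per gene. The libraries were depleted of ribosomal RNA and read as pairs of 42 bases. Trimming by the authors used Trim Galore 0.4.5. They mapped the reads with STAR 2.7.5a to GRCm39, counted per gene with HTSeq 0.11.0 at default parameters and used DESeq2 1.22.0 in R 3.5.3. The deposited mean normalized count is a signal averaged by the authors over all 6 samples after division by size factors. The other 5 numeric columns hold the authors' comparison of the genotypes (log2 fold change, its standard error, the test statistic, p-value and adjusted p-value) and were not used. The stated minimum of 5 counts in a sample does not match the table as a filter on every sample, since 5385 genes have a mean under 5 (lowest 0.618). The means hold 0 repeated values, so neither whole reads nor the depth of any library could be worked out, and the planned edgeR test of single samples was not run.

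Each mean was divided by the length of the union of the gene's exons in GENCODE on GRCm39, a later release than the authors' annotation, found for 20122 (97.6%) of the identifiers. Where a symbol had several identifiers, that with the highest mean was kept. Percentiles are shares of 20116 symbols at or below a gene's level, with the gene itself included. Repeated 42-base stretches were counted in the whole genome. Promoter windows of 300 bases came from RefSeq. Named with identifier and position were the highest and lowest member of each role per kb of exon and every member with a mean under 10. The highest and lowest gene of each other pathway group were named with their level only, and further members were described by function. The members and lists were chosen with earlier results of these data known. Scripts were tested on simulated data. Python 3.11.15, numpy 2.4.6, pandas 2.3.3, numba 0.67.0 and matplotlib 3.10.9 were used.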

Additional observations from a re-analysis of the deposited data

How the results depend on the processing

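The median member stood at percentile 88.5 of all genes. It stood at 87.8 when the other genes were limited to means of 1 or more, at 83.0 for means of 10 or more, at 87.6 with the longest transcript as length and at 86.2 without scaling by length. With every identifier kept it was 88.5. The count of members over the threshold was 41 at a mean of 100 or 10 and 27 at 1000, which 20.9% of all genes reached. With the longest transcript, role medians per kb were 288.3 for sensors, 180.7 for other eIF2α kinases, 500.3 for phosphatase subunits, 431.7 for transcription factors, 178.2 for effectors, 1191 for enzymes, 1222 for folding genes and 305.3 for degradation genes. With unrepeated stretches only, an alternative chosen after seeing the data, they were 125.2 for kinases, 514.4 for phosphatase subunits, 248.1 for transcription factors, 748.7 for enzymes and 702.0 for folding genes, and moved little in the other 3 roles. These shifts follow from the shorter lengths. The core CCACG of either ER stress element was in 27 members, and the ER stress element with 1 mismatch, also chosen after seeing the data, in 12. The search of proteins for ER retrieval signals was not run. No paired analysis was possible because only a mean over all samples was used, which also leaves no leave-one-out values. Depth per library is unknown, so the precision of low means such as that of *Derl3* cannot be given.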
